A study of Rattus norvegicus with 4 samples.

Results

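Very long m6A peaks, here every listed peak of 2000 bp or more, were described in neonatal rat cardiac fibroblasts (CFs). The rule selected 950 of 21249 peaks in the Vector and 961 of 17796 in the FTO group, together 1911 of 39045. They were assigned to 1076 of the 8729 genes that had a peak in either group. The CFs were primary cells from hearts of healthy newborn Sprague-Dawley rats, collected at an age of 3 days at most. Vector cells, which the labels call WT, received the empty plasmid for 48 h, and FTO cells, labelled as FTO overexpression, the plasmid carrying rat FTO cDNA. Each group had 1 m6A-IP and 1 input library and 1 list of peaks, so differences between groups lack a replicate check and no p-value was computed. Transfection was transient, and reads from the plasmid and from endogenous Fto were not separated. Members were chosen on peak length, so lengths and counts of long peaks are given as a description.

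N6-methyladenosine (m6A) is deposited on mRNA by the METTL3-METTL14 methyltransferase complex and removed by the demethylases FTO and ALKBH5. The mark is known to gather in long internal exons and around the stop codon in the last exon, and to be scarce near exon junctions, where the exon junction complex keeps the writers away. m6A-seq pulls down RNA fragments with an antibody and calls a peak where they exceed the input, so a long unbroken stretch of methylated RNA can be called as 1 long peak. The listed length of a peak is not a level of methylation. Whether it measures 1 unbroken methylated stretch was not tested. The files used here give length, Ensembl transcript and NCBI gene ID for each peak. Positions, heights and peak sequences were not used here. Sequencing depth is unknown.

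Long peaks were as numerous in the FTO group as in the Vector group, while shorter peaks were fewer. Their number differed by 1.16% (950 and 961), against a difference of -17.1% for peaks under 2000 bp (20299 and 16835). Long peaks thus made up 4.47% of the Vector list (95% Wilson interval 4.20% to 4.76%) and 5.4% of the FTO list (5.08% to 5.74%). The intervals cover counting error only. In percent, the difference between the lists was largest among the shortest peaks. Peaks under 100 bp numbered 2723 in the Vector and 1919 in the FTO list (-29.5%). From 100 bp to under 200 bp there were 7714 and 5944 (-22.9%), and from 1000 bp to under 1500 bp 1300 and 1287 (-1.0%). From 1500 bp to under 2000 bp there were 775 and 720 (-7.10%). Among the long peaks, 637 Vector and 656 FTO peaks were under 3000 bp, and 275 and 270 were from 3000 bp to under 5000 bp. Those of 5000 bp or more numbered 38 and 35 (-7.89%). The order of the groups depended on the limit. With 1500 bp the lists held 1725 Vector and 1681 FTO peaks, and with 3000 bp 313 and 305. Although few in number, the long peaks covered 26.5% of all base pairs in the Vector peaks and 28.6% in the FTO peaks.

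**Figure D1:**
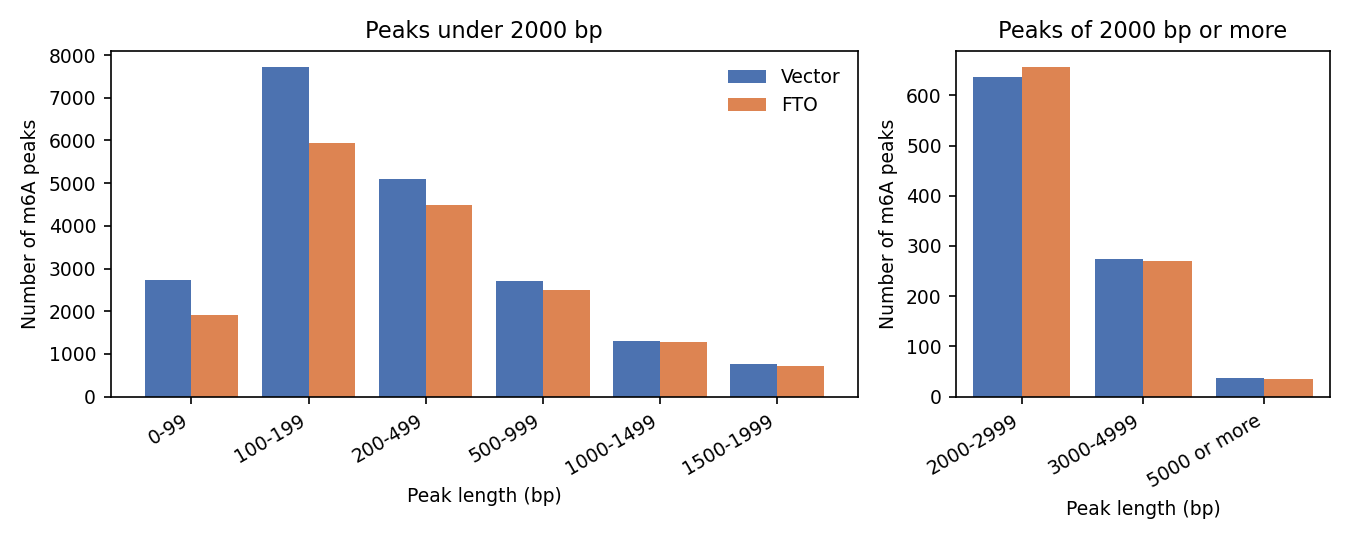
Number of m6A peaks (vertical axis) by peak length in bp (horizontal axis) in the Vector (blue) and FTO (orange) lists, with peaks of 2000 bp or more in the right panel on their own scale. FTO bars are lower among the short peaks, 1919 against 2723 under 100 bp, and differ little at 2000 bp or more, 961 against 950 in all.

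The median length was 2603.5 bp for long Vector peaks (middle 50% 2268.5 to 3229.75 bp) and 2593 bp for long FTO peaks (2266 to 3215 bp). No gap separated long peaks from shorter ones at the limit of 2000 bp. In the 50 bp above the limit there were 55 Vector and 57 FTO peaks, and in the 50 bp under it 58 and 52. Just inside the limit were Hspa1l and Slc25a46 with Vector peaks of 2000 bp and Tlr4 with 2001 bp, and Jrkl, Atxn1 and Mllt1 with FTO peaks of 2000, 2002 and 2004 bp. Just outside were Pom121 with a Vector peak of 1999 bp, Mfsd4b1 with an FTO peak of 1998 bp, and Prnp and gene ID 100911672 with 1997 bp in each list.

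Most of the longest peaks were listed with the same length in each group. Ahnak2, a giant scaffold protein, had 1 peak of 17143 bp in the Vector list (transcript ENSRNOT00000039631) and 1 of 17143 bp in the FTO list, and no other peak. Stard9, a mitotic kinesin, followed with 9836 bp in each list. Map1a, a microtubule-associated protein, had 8104 bp in each, Spen, a transcriptional repressor that binds RNA, 8059 bp, and Plec, the cytolinker plectin, 7383 bp. Among the scaffolds of Wnt signalling, Apc2 had 7747 bp in each list and Apc 6775 bp, although the number of all Apc peaks was 9 in the Vector and 4 in the FTO list. Usf3 had 6612 bp in each list. The zinc finger genes Zfp292 and Peg3 were listed a little longer in the FTO group, with 8716 and 8802 bp and with 7711 and 7778 bp. Nfat5, the transcription factor of the response to osmotic stress, stood among the 10 longest peaks in the FTO list alone, with 8104 bp against 2494 bp in the Vector list.

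Most genes carried 1 long peak. In the Vector group 885 genes had 1, 29 had 2, and 1 gene each had 3 and 4. In the FTO group 898 genes had 1, 30 had 2 and 1 had 3. Fat4, an atypical cadherin, had Vector peaks of 5747, 4350 and 2955 bp and FTO peaks of 5747, 4350 and 2952 bp. Its shorter Vector peaks numbered 5 and its shorter FTO peaks 1. Map1b, Fat1, Zfhx3, Hivep2, Igsf10, Cenpf, Kmt2a, Tet2 and Arhgap35 had 2 long peaks in each list. Luzp1, an actin-associated protein, had long Vector peaks of 4255 and 4029 bp and 1 long FTO peak of 4313 bp beside 1 of 164 bp. Akap13, a scaffold that anchors protein kinase A, had 3788 and 3061 bp in the Vector and 3061 bp in the FTO list. Gene ID 102547059, which has no symbol in the RefSeq table, had 4 long Vector peaks on 4 transcripts, and 2 of them had the same length of 5761 bp. Whether these are copies of 1 sequence was not tested.

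Genes with a long peak had 3.17 peaks of any length on average in the Vector list, against 2.63 in the other genes with a peak. In the FTO list the averages were 2.86 and 2.38, and the median was 2 in each set. The long peak was the only peak of the gene for 323 of 916 genes in the Vector list (35.3%) and for 366 of 929 in the FTO list (39.4%). Among the other genes, 43.3% and 48.1% had 1 peak. The shorter peaks of the same genes had a median length of 178 bp in the Vector and 184 bp in the FTO list, against 197 and 216 bp for all peaks of the other genes.

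Most genes with a long peak had one in each group. Long peaks were found in 916 genes in the Vector list, which is 11.6% of its genes with a peak, and in 929 genes in the FTO list, which is 12.7%. A long peak was listed in each group for 769 genes, in the Vector group alone for 147 and in the FTO group alone for 160. With 1500 bp as the limit these were 297 and 262, so the larger number fell on the other side. The 769 genes are 84.0% of the Vector genes (95% Wilson interval 81.4% to 86.2%) and 82.8% of the FTO genes (80.2% to 85.1%). In 766 of them a long peak was assigned to the same transcript in the lists. Genes with a long peak were seldom without any peak in the other list. No FTO peak of any length was listed for 58 of the 916 Vector genes, 6.33% (4.93% to 8.10%), against 19.7% (18.8% to 20.6%) of the 6978 other Vector genes and 18.1% of all. No Vector peak was listed for 39 of the 929 FTO genes, 4.20% (3.09% to 5.69%), against 12.5% (11.7% to 13.3%) of the 6368 other FTO genes and 11.4% of all. These genes also had more peaks per gene, as given above, and the part of that in the result was not tested. In these bulk libraries, fewer cells with a transcript and less of it per cell cannot be told apart.

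**Figure D2:**
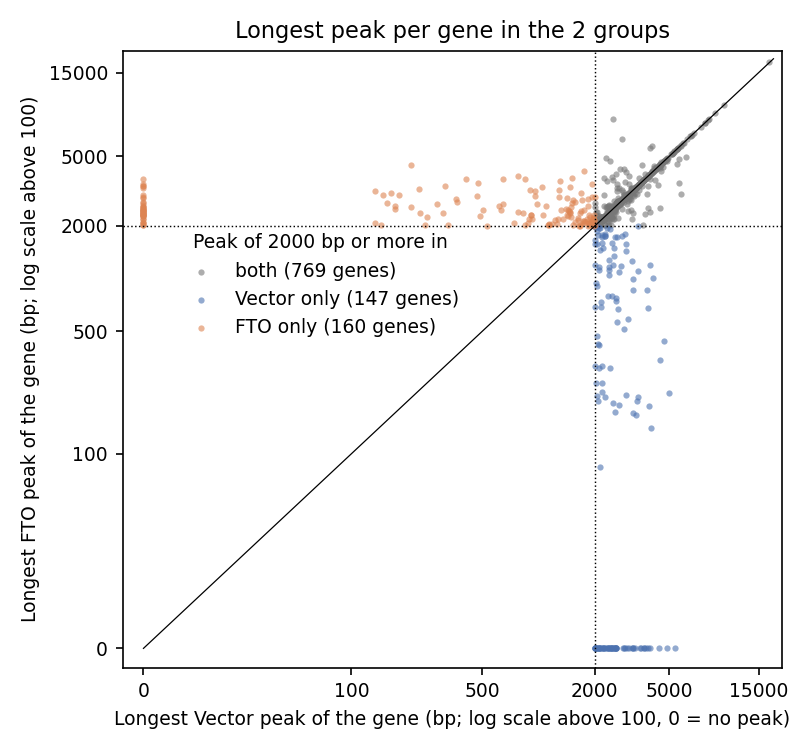
Longest Vector peak (horizontal axis, bp) and longest FTO peak (vertical axis, bp) of each of the 1076 genes with a long peak, on axes that are logarithmic above 100 bp, with 0 for no peak. Dotted lines mark 2000 bp and the solid line equal lengths. Most of the 769 genes with a long peak in each group (grey) lie on the line, and the 147 Vector (blue) and 160 FTO (orange) genes spread from just below 2000 bp to 0 in the other group.

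In the 769 genes with a long peak in each list, the longest peak had the same length in 484 (62.9%), was longer in the FTO list in 157 and was shorter in 128. Over all 6462 genes with a peak in each list, 60.6% had a longest peak of equal length, 20.2% a longer and 19.2% a shorter one. In the 285 long-peak genes whose lengths were not equal, the difference was small beside the peak, with a median of 76 bp (middle 50% 27 to 244 bp) or 2.80% of the Vector length. Differences of 10% or more were found in 68 genes, 36 longer and 32 shorter with FTO. These are 8.84% of the genes, against 25.5% of all genes with a peak in each list, of which 12.7% were longer and 12.9% shorter. The rule held these genes above 2000 bp in each list, which limits how far their lengths can differ.

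The FTO peak exceeded the Vector peak by most in Nfat5, Xirp2, Crebbp, Ppm1l and Zfp275. The Nfat5 peaks measured 2494 and 556 bp in the Vector list and 8104, 879 and 556 bp in the FTO list, a ratio of 3.25 for the longest. Xirp2, an actin-binding protein of striated muscle, had 2801, 1766 and 1751 bp in the Vector list and 6264, 2963 and 1814 bp in the FTO list. Of 8 cardiomyocyte markers, 6 had a Vector peak and 5 an FTO peak, none of them long, and the part of such cells in the Xirp2 result was not tested. Crebbp, a histone acetyltransferase and coactivator, had longest peaks of 2288 and 4905 bp, while its next peaks had the same 710 and 414 bp in each list. The protein phosphatase Ppm1l had 1 peak of 2417 bp and 1 of 4671 bp, and Zfp275 had 4039 and 1537 bp in the Vector list and 5704 and 116 bp in the FTO list, or 5576 and 5820 bp in sum. The longest FTO peak thus exceeded the longest Vector peak by 1665 to 5610 bp in these genes.

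The Vector peak exceeded the FTO peak by most in 5 genes. Gene ID 102547059 had a longest peak of 5761 bp in the Vector and 3046 bp in the FTO list, and gene ID 100910990 had 3612 and 2036 bp. Card6, a caspase recruitment domain protein, had 5650 and 3515 bp, Sowahc 4453 and 2529 bp and Rassf8 3943 and 2396 bp. By gene, the differences ran from -2715 to -1547 bp. The longest peaks of gene ID 102547059 were assigned to different transcripts in the lists, and compared by transcript its difference was -5761 bp.

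Peaks were also paired 1 to 1 between the lists when gene and length were the same. A partner of equal length was found for 501 of the 950 long Vector peaks, 52.7% (95% Wilson interval 49.6% to 55.9%), against 57.3% of all Vector peaks and 57.5% (56.8% to 58.1%) of those under 2000 bp. In the FTO list it was found for 501 of 961, 52.1% (49.0% to 55.3%), against 68.4% of all FTO peaks and 69.3% of the shorter ones. With lengths within 10% accepted, partners were found for 78.4% of the long Vector peaks (75.7% to 80.9%) and 78.1% of the long FTO peaks (75.4% to 80.6%), against 63.6% and 75.9% of all peaks. In each list the share with an exact partner was thus lower for long peaks than for all shorter peaks pooled. In the Vector list the share with a near partner was higher. The exact share did not fall steadily with length. Vector shares were 49.3% under 100 bp, 62.8% from 200 to under 500 bp and 49.8% from 1500 to under 2000 bp. FTO shares were 73.5% from 100 to under 200 bp, 54.8% from 1000 to under 1500 bp and 53.6% from 1500 to under 2000 bp. At 5000 bp or more they were 63.2% in the Vector and 68.6% in the FTO list. Because pairs are 1 to 1, the shares also depend on the number of peaks in each list. A tolerance of 10% is wider in base pairs for a long peak. Lengths that were multiples of 3 made up 37.7% of the long Vector peaks (34.7% to 40.8%) and 36.5% of the long FTO peaks (33.5% to 39.6%), against 38.1% of all Vector peaks.

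The 147 genes with a long peak in the Vector list alone were divided by what the FTO list held for them. No FTO peak was listed for 58 of them, the longest FTO peak was under 500 bp in 27, from 500 to under 1500 bp in 34 and longer in 28. Of the 160 genes with a long peak in the FTO list alone, 39 had no Vector peak, 25 a longest Vector peak under 500 bp, 47 from 500 to under 1500 bp and 49 a longer one still under 2000 bp. Among those with a peak in the other list, its median longest length was 1014 bp for the Vector genes and 1346 bp for the FTO genes. Long peaks of these genes were shorter than those found in each group, with medians of 2412 and 2375 bp against 2640 and 2668 bp. A peak close to the limit needs a smaller difference to fall under it in the other list, so the rule favours shorter lengths here.

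**Figure D3:**
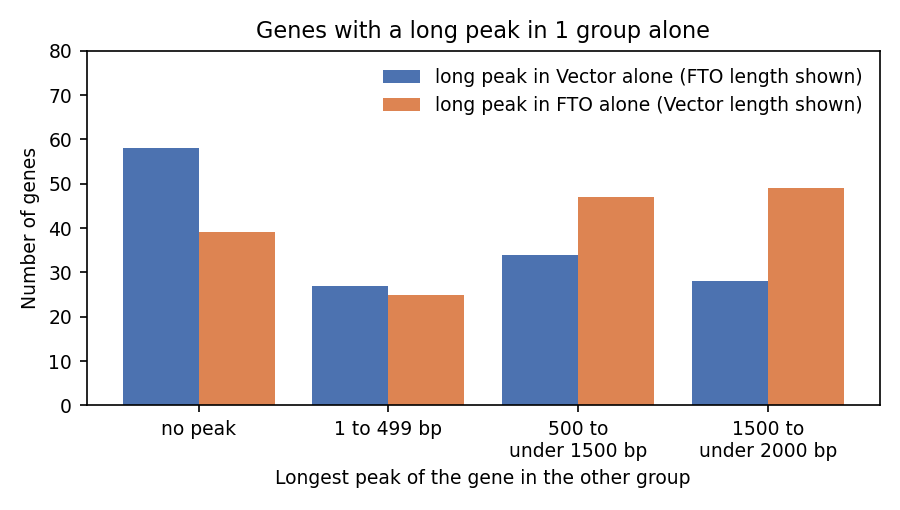
Number of genes (vertical axis) with a long peak in the Vector group alone (blue) or the FTO group alone (orange), by the longest peak of the same gene in the other group (horizontal axis, bp). In the other group, 58 of the 147 Vector genes and 39 of the 160 FTO genes had no peak, and 28 and 49 had a longest peak from 1500 to under 2000 bp.

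The longest peak found in the Vector group alone belonged to Chst3, a chondroitin sulfotransferase, with 1 Vector peak of 5335 bp and no FTO peak. Tril, a leucine-rich repeat partner of the innate receptor TLR4, had 1 Vector peak of 4845 bp, and Nexmif had a longest Vector peak of 4379 bp, and no FTO peak was listed for these 2 genes. In several other genes a short peak was kept with the same length while the long peak was not listed. Rlf, a zinc finger protein, had Vector peaks of 4968 and 222 bp and an FTO peak of 222 bp. Glg1, a Golgi glycoprotein, had 4697 and 438 bp in the Vector and 438 bp in the FTO list. Zfx had 3994 and 141 bp in the Vector and 141 bp in the FTO list. This FTO peak was assigned to another transcript than the long Vector peak. Adarb1, an RNA-editing adenosine deaminase, had a longest Vector peak of 4092 bp and a longest FTO peak of 1014 bp on another transcript, and 982, 182, 173 and 152 bp were listed in each. Of the 84 genes of this kind with a shorter Vector peak beside the long one, 52 had a shorter peak of the same length in the FTO list. Of all Vector peaks under 2000 bp, 57.5% had such a partner. That is a share of peaks, not of genes with at least 1 such peak, so it cannot be compared directly with the 52 genes.

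Genes with a long peak in the FTO group alone showed the reverse. Fam53b had 779 bp in the Vector list and 3853 and 779 bp in the FTO list, where the longest peak was assigned to another transcript. Smad3, which carries TGF-beta signals to the nucleus and drives fibroblast activation, had 4 Vector peaks of 408, 213, 194 and 75 bp. Its 5 FTO peaks measured 3681, 408, 194, 75 and 51 bp, so 3 of the short peaks had the same length in each list and the long peak was listed in addition. Tmcc3 had longest peaks of 1757 and 4110 bp in the Vector and FTO lists, Ldlrad4, an inhibitor of TGF-beta signalling, 1504 and 3730 bp on different transcripts, the bradykinin receptor Bdkrb2 848 and 3712 bp, and Fam83h 645 and 3693 bp. Tgfa, a ligand of the EGF receptor, had 1 FTO peak of 3692 bp and no Vector peak. Of the 90 genes of this kind with a shorter FTO peak beside the long one, 63 had a shorter peak of the same length in the Vector list. Of all FTO peaks under 2000 bp, 69.3% had such a partner, which again is a share of peaks and not of genes.

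**Figure D4:**
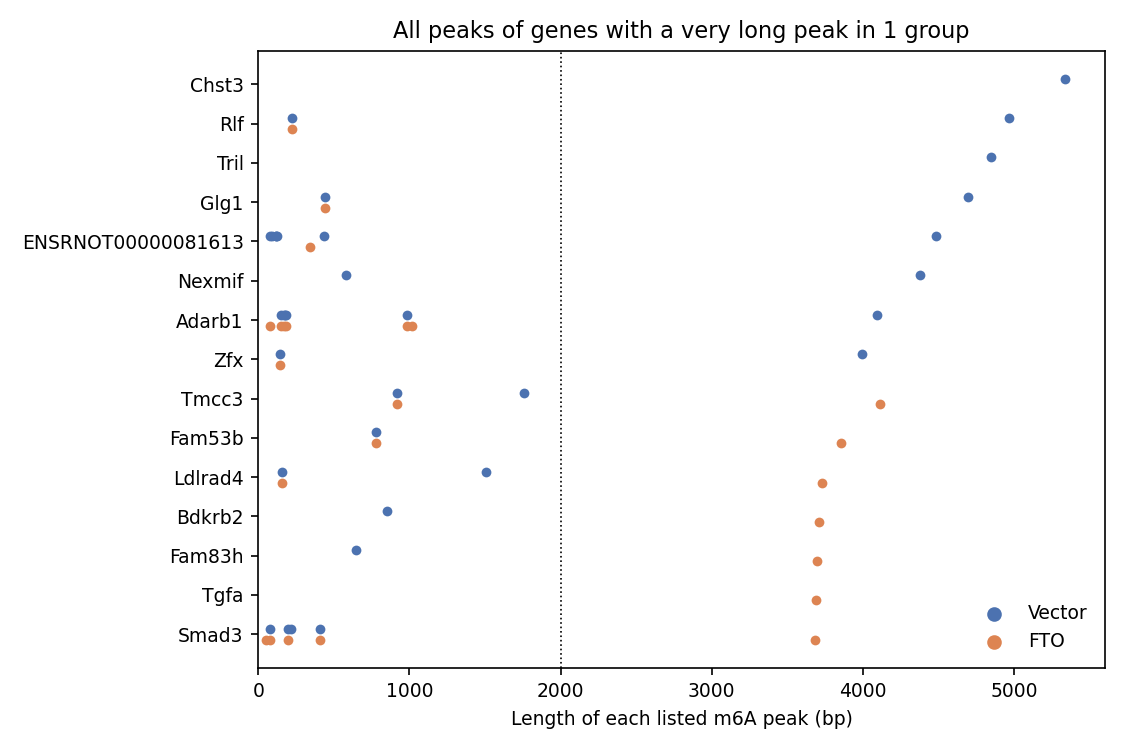
Length in bp (horizontal axis) of every listed peak of 8 genes with a very long peak in the Vector group alone (upper rows) and of 7 in the FTO group alone (lower rows), with Vector peaks in blue, FTO peaks in orange and a dotted line at 2000 bp. Rlf (222 bp), Glg1 (438 bp) and Fam53b (779 bp) keep a short peak of equal length while the long peak is listed in 1 group.

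Long peaks were then counted over gene families chosen by symbol, with earlier results of these data known. Their shares are therefore a description. The families held 207 of the 1076 genes, so most genes with a long peak belonged to none of them. Each share is taken over the members with a peak of any length, and is set beside the 11.6% of all Vector genes and 12.7% of all FTO genes with a long peak.

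Protocadherins and the related giant cadherins, adhesion proteins of the cell surface, had the highest share. The clustered protocadherins are a known case of a long exon, since the whole extracellular part of each is encoded in 1 variable exon. A long peak was found in 28 of 30 members with a Vector peak (93.3%, 95% Wilson interval 78.7% to 98.2%) and in 24 of 24 with an FTO peak (100%, 86.2% to 100%). Among the gamma protocadherins, 13 had a long peak, 12 of them in each list and with the same longest length. All 13 longest lengths lay between 2415 and 2436 bp and were multiples of 3, against 38.1% of all Vector peaks. Pcdhga3 and Pcdhga10 had 2415 bp in each list, Pcdhga1, Pcdhga2 and Pcdhga9 2421 bp, and Pcdhgc3 a longest peak of 2436 bp. Pcdhgc3 had 1 long Vector peak and 2 long FTO peaks, and all its peaks summed to 2752 and 5176 bp. Pcdhgb8 had 2415 bp in the FTO list and no Vector peak. The 7 beta protocadherins differed, with 3 in each list and 4 in the Vector list alone, and 4 of their longest lengths were multiples of 3. Pcdhb20 (2587 bp), Pcdhb3 (2555 bp), Pcdhb14 (2361 bp) and Pcdhb19 (2353 bp) had a Vector peak and no FTO peak. Pcdh9, outside the clusters, had a Vector peak of 3183 bp and no FTO peak, while Pcdh7 had 3182 bp in each list. The clustered genes are similar in sequence and some share exons, so the assignment of a peak to 1 of them is uncertain.

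Membrane proteins with leucine-rich repeats had a long peak in 8 of 13 members with a Vector peak and 8 of 13 with an FTO peak (61.5%, 35.5% to 82.3% in each list). All 5 Lrrc8 genes, subunits of the volume-regulated anion channel, had a long peak in each list. Lrrc8d had 2974 bp, Lrrc8a 2165 bp and Lrrc8b 2162 bp in each, while Lrrc8e had 2647 and 2787 bp and Lrrc8c 2593 and 3951 bp in the Vector and FTO lists. Lrrc32, which holds latent TGF-beta at the cell surface, had 3803 bp in each. Flrt2, a guidance and adhesion molecule, had 2528 bp in the Vector list and no FTO peak, and Amigo1 had 2194 bp in the FTO list and no Vector peak.

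Zinc finger genes were the most numerous, with 85 of 256 in the Vector list (33.2%, 27.7% to 39.2%), against 92 of 255 in the FTO list (36.1%, 30.4% to 42.1%). The list was taken by symbol and also holds RNA-binding proteins such as Zfp36l1 and Zfp36l2. In many of these genes the array of fingers is encoded in 1 large last exon. The long peak was the only peak of the gene for 43 of the 85 and for 54 of the 92. A long peak in each list was found for 76, with equal length in 43, a longer FTO peak in 15 and a shorter one in 18. Zfp462 had 5621 bp and Zfp629 5517 bp in each list. Zfp518a was listed with 5613 and 4812 bp and Zbtb39 with 5507 and 4531 bp in the Vector and FTO lists. A long peak in the Vector list alone was found for 9 genes, 6 of them with no FTO peak, of which Zfp260 had the longest with 3513 bp. In the FTO list alone it was found for 16, 6 of them with no Vector peak. Zfhx2 had longest peaks of 1921 and 3462 bp, Zfp423 1287 and 3215 bp, and Zfp458 had 2905 bp in the FTO list and no Vector peak.

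Enzymes and remodellers of chromatin had a long peak in 21 of 64 genes in each list (32.8%, 22.6% to 45.0%), and the 21 were the same genes. The length was equal in 16, longer with FTO in 3 and shorter in 2, and none of the 21 had the long peak as its only peak. Ash1l had 4558 bp, Kat6a 4516 bp, Setd2 4283 bp and Kmt2a 4240 bp in each list. Tet2, a DNA demethylase, had 3248 bp in each. The largest difference among them was that of Crebbp, given above.

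Forkhead factors had a long peak in 6 of 17 genes in the Vector list (35.3%, 17.3% to 58.7%), against 5 of 15 in the FTO list (33.3%, 15.2% to 58.3%). Foxc1 and Foxc2, which act in heart and vessel development and are known for a coding sequence in 1 exon, had 2877 and 2983 bp and 2703 and 2683 bp, each as the only peak of the gene. Foxk1 had 3972 and 3988 bp, Foxn3 2621 bp and Foxm1 2183 bp in each, and Foxn2 2572 bp in the Vector and 1735 bp in the FTO list.

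Of the immediate early genes with a peak, 4 of 18 in the Vector list (22.2%), against 4 of 16 in the FTO list had a long peak. Egr1 had 2632 bp and Btg2 2318 bp in each list, Jun, a subunit of AP-1 whose gene has no intron, 3005 and 3089 bp, and Egr2 2071 and 2108 bp. The homeobox factors had 3 of 20 in each list, all of the teashirt family. Tshz1 had 3213 bp and Tshz2 3054 bp in each, and Tshz3 had 3928 bp in the Vector and 3698 bp in the FTO list. Among Klf and Sox factors, 2 of 16 and 2 of 17 had a long peak (12.5% and 11.8%), near the share of all genes. Sox9, a factor of cartilage and of fibrosis, had 2383 and 2102 bp. Sox11 had 2010 bp in the Vector and 1669 bp in the FTO list, and Klf7 had 630 and 2453 bp.

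**Figure D5:**
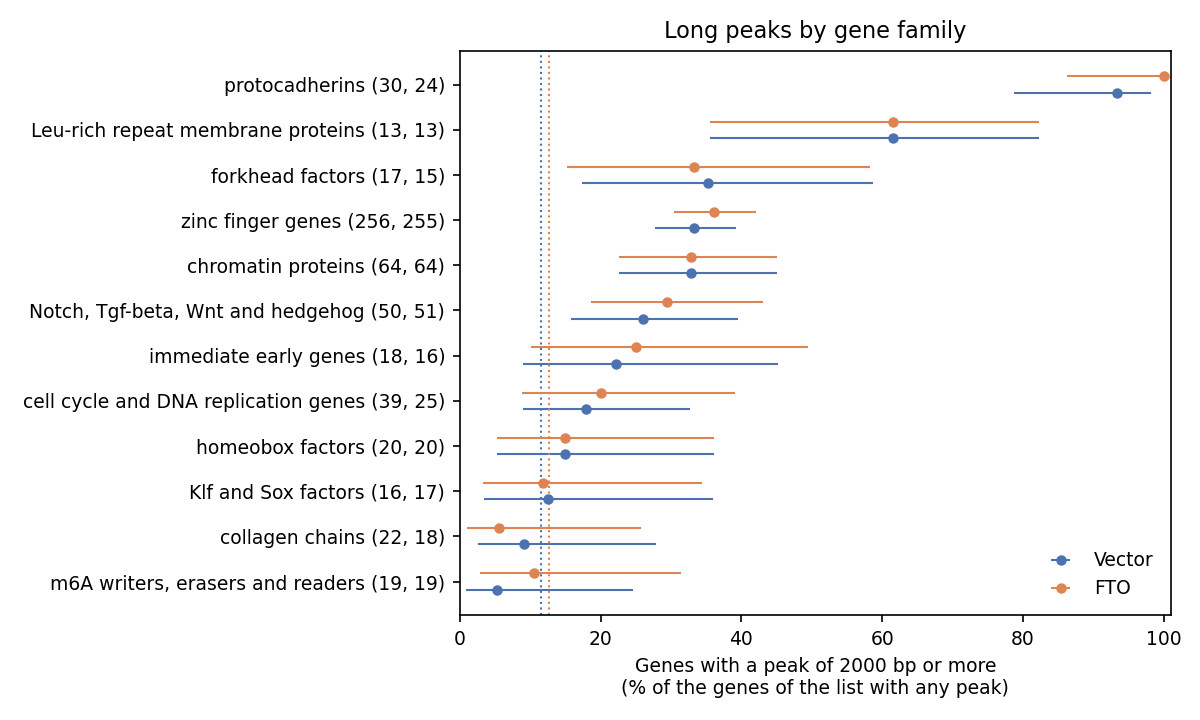
Share of the members with any peak that had a peak of 2000 bp or more (horizontal axis, percent) in each gene family, with the number of members with a Vector and an FTO peak in parentheses, for the Vector (blue) and FTO (orange) lists. Bars are 95% Wilson intervals and dotted lines are the shares of all genes, 11.6% and 12.7%. Protocadherins stand at 93.3% and 100%. Collagen chains, at 9.09% and 5.56%, have intervals that include the shares of all genes.

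Genes of the Notch, TGF-beta, Wnt and hedgehog pathways had a long peak in 13 of 50 in the Vector list (26.0%, 15.9% to 39.6%), against 15 of 51 in the FTO list (29.4%, 18.7% to 43.0%). Among receptors, Fzd1 had 4399 bp, Fzd8 2985 bp and Fzd5 2152 bp in each list, each as the only peak of the gene, and Notch1 had 2817 and 3127 bp. Among secreted proteins, the BMP antagonist Grem1 had 3671 bp in each. Bmp2 had 1315 and 2473 bp and Wnt4 3064 and 2857 bp in the Vector and FTO lists. Among factors inside the cell, Smad7, which inhibits TGF-beta signalling, had 2131 bp in each, Gli2 had 3845 and 3846 bp, and Heyl, a Notch target, had 2847 bp in the Vector list and no FTO peak. Smad3 is described above.

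Collagen chains had a long peak in 2 of 22 genes in the Vector list (9.09%, 2.53% to 27.8%), against 1 of 18 in the FTO list (5.56%, 0.988% to 25.8%). These shares were near or below those of all genes, and counts this small do not set the family apart. The 2 genes were the chains of type VIII collagen, a short-chain network collagen. Col8a1 had 3746 bp in each list. Col8a2 had 1 Vector peak of 3854 bp and no FTO peak.

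A further list held the collagen-related genes that the study plotted, which it chose on these samples, so their direction is not independent evidence. A long peak was found in 5 of 10 with a Vector peak and 3 of 9 with an FTO peak. Acan, the large proteoglycan aggrecan, had 11 Vector peaks, the longest of 3471 bp and the next of 384 bp, and no FTO peak. Adamts2, which cleaves the propeptide of procollagens, had Vector peaks of 3298, 395, 211 and 124 bp and 1 FTO peak of 167 bp. Cspg4 had 2 long peaks in each list, the longest of 3549 bp, and 3 Vector and 6 FTO peaks of any length. The thrombin receptor F2r had 1 peak of 3270 bp in each list. Foxc2, given above, had 2703 bp in the Vector and 2683 bp in the FTO list. Cspg4 and Cspg4b carried long peaks of nearly the same length, 3549 and 3561 bp, and reads shared by the pair could not be separated here. Eprs had no long peak.

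Of the m6A writers, erasers and readers with a peak, 1 of 19 had a long Vector peak and 2 of 19 a long FTO peak (5.26%, 0.935% to 24.6%, and 10.5%, 2.94% to 31.4%). Rbm15, a subunit of the writer complex, had 1 peak of 3064 bp in each list. Fto itself had Vector peaks of 144, 144 and 120 bp. Its 9 FTO peaks ran from 60 to 2021 bp, with 619 bp next to the longest, and the 3 Vector lengths were among them. The peak of 2021 bp was assigned to transcript ENSRNOT00000086829, the longest Vector peak to ENSRNOT00000015718.

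Of the cell cycle and DNA replication genes, 7 of 39 had a long Vector peak (17.9%, 8.98% to 32.7%) and 5 of 25 a long FTO peak (20.0%, 8.86% to 39.1%). These intervals include the shares of all genes, 11.6% and 12.7%. The proliferation marker Mki67 had 4020 bp, the spindle protein Aspm 3780 bp and the kinetochore protein Cenpf 3383 bp in each list. The number of all peaks was 6 and 3 for Mki67, 6 and 1 for Aspm and 16 and 8 for Cenpf in the Vector and FTO lists, so the long peak was listed in each while shorter peaks were fewer. Brca1 had 3318 and 3286 bp. Brca2, which acts in repair by homologous recombination, had Vector peaks of 2697, 1978, 1095, 693 and 50 bp and FTO peaks of 1095, 771 and 89 bp. Aurkb, a mitotic kinase, had 1 Vector peak of 2272 bp and no FTO peak.

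Over the 769 genes with a long peak in each list, the shorter peaks numbered 1728 in the Vector and 1477 in the FTO list, a difference of -14.5%, beside -17.1% for all shorter peaks. The number of all peaks was lower in the FTO list in 232 of the 769 genes, higher in 108 and the same in 429. Over all 6462 genes with a peak in each list, it was lower in 33.8% and higher in 15.7%. Of the 484 genes whose longest peak had the same length in each list, 153 had fewer and 72 had more peaks in the FTO list.

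Markers of cell types were looked up in the same lists, where a peak shows that a transcript was methylated and detected, not how much of it there was. Of 14 fibroblast markers, 8 had a peak, among them Pdgfra, Pdgfrb, Tcf21 and Postn, and Pdgfra had a long peak of 3262 bp in each list. Peaks were also listed for 6 of 8 cardiomyocyte markers, among them Tnnt2 and Ryr2, for 3 of 4 macrophage markers, for 2 of 4 smooth muscle or pericyte markers and for 1 of 5 endothelial markers. Of these, Cspg4 alone had a long peak. Col1a1, Col1a2 and Col3a1 had no listed peak. The part of other cell types in the long peaks was not tested.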

How the data were processed

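m6A-seq of CFs transfected with Vector or FTO plasmid was analysed, with 1 m6A-IP and 1 input library per group. The submitters' processing notes name cutadapt 1.9.3, HISAT2 2.0.4 and the build rn6. Peak names carry the prefix MACS. The caller's settings, its threshold and the annotation release are not given in the sources used here. Peak numbers run up to 59557 in the Vector and 52060 in the FTO list, more than the peaks listed. Whether the lists were filtered is unknown, so a gene without a listed peak may have had a called one. The authors deposited 1 list per group with peak lengths in bp, which are not normalized values. Depth is unknown.

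Genes were taken by gene ID, or by transcript for the 11 Vector and 10 FTO long peaks without one. Symbols came from the RefSeq table of GRCr8, which was used for names only and matched 876 of 905 long-peak gene IDs in the Vector and 887 of 920 in the FTO list. The limit of 2000 bp, the members and the gene lists were chosen with earlier results of these data known. Peaks were paired 1 to 1 by gene and length. Shares have 95% Wilson intervals. Named genes are the longest peaks, those longest in 1 list alone, those at the limit, those that differed most and the longest of each family, and a few more (Amigo1, Zfp260, Zfhx2, Zfp423, Zfp458, Bmp2, Wnt4, Heyl, Notch1, Smad7, Fzd5, Fzd8, Cspg4b and single Lrrc8 and protocadherin genes) were chosen after their values were seen. Values of a few genes that met these rules are not reported here. The counts were tested on simulated lists. Python 3.11.15, numpy 2.4.6, pandas 2.3.3, scipy 1.17.1 and matplotlib 3.10.9 were used. Alternatives were other length limits, transcripts for genes, peaks with a gene ID only and a tolerance of 10%.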

Additional observations from a re-analysis of the deposited data

How the results depend on the processing

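Of 63 counts and shares under the alternatives, 26 stayed within 1.5 times the count or within the 95% interval of the share, and 37 moved, as other length limits select other peaks. With a limit of 1500 bp there were 1725 Vector and 1681 FTO peaks (8.12% and 9.45% of the lists), 1347 genes in each list, 297 in the Vector list alone and 262 in the FTO list alone, with 284 longer and 228 shorter with FTO, and 279 genes of the families in the FTO list. With 3000 bp there were 313 and 305 peaks (1.47% and 1.71%), 255, 48 and 44 genes, 47 longer and 38 shorter, 63 family genes in each list, and an equal-length partner for 57.0% of the FTO peaks. With the longest 1% of each list (3313 bp or more in Vector, 3493 bp or more in FTO) there were 213 and 178 peaks (1.0024% and 1.0002%), 152, 56 and 24 genes, 31 longer and 20 shorter, and partners for 56.3% and 57.9%. The excess of genes in the FTO list alone (160 against 147) thus turned at 1500 bp and at 3000 bp. The excess of FTO over Vector peaks (961 against 950) was also absent at these limits. With the longest 1% the number of peaks follows from the size of each list, and the FTO limit was higher. That setting therefore cannot show the order of the groups. A tolerance of 10% gave partners for 78.4% and 78.1%, and differences of at least 10% left 36 longer and 32 shorter genes. Using transcripts or peaks with a gene ID only moved none of these counts. By transcript, 104 of 110 named genes kept their difference in length, 6 changed in size and 0 turned. The 6 are Adarb1 (-4092 bp), Zfx (-3994 bp), gene ID 102547059 (-5761 bp), Fam53b (3853 bp), Ldlrad4 (3730 bp) and Fto (2021 bp). No paired analysis was possible because neither group had more than 1 m6A-IP and 1 input library. Replicates could not be left out. Peak numbers depend on depth, which is unknown.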
